A study of Mus musculus with 4 samples.

Results

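The genes described here encode the protein subunits of respiratory complexes I, III and IV and of ATP synthase (complex V). They were chosen by symbol alone: protein-coding genes whose symbol begins with Ndufa, Ndufb, Ndufc, Ndufs, Ndufv, Uqcr, Cox4 to Cox8, Atp5 or mt-, leaving out the Ndufaf assembly factors. This gave 94 of the 55401 genes in the deposited table, of which 81 are nuclear and 13 lie on the mitochondrial chromosome. Among the nuclear genes 36 belong to complex I, 8 to complex III, 20 to complex IV and 17 to ATP synthase. The mitochondrial genes divide into 7, 1, 3 and 2 in that order. Ndufa4 and its paralog Ndufa4l2 are counted with complex IV, where the Ndufa4 protein sits. Cyc1, the nuclear gene of the complex III subunit cytochrome c1, begins with none of these letters and is not a member. The symbols are those of an older annotation, in which the ATPase inhibitor gene is Atpif1 and a small membrane subunit is Usmg5, so these fall outside the rule.

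The respiratory chain sits in the inner mitochondrial membrane. Complexes I, III and IV pass electrons to oxygen and pump protons out of the matrix, and ATP synthase lets the protons back in to make ATP. Most subunits are made in the cytosol from nuclear genes and imported. A few hydrophobic core subunits are encoded by mitochondrial DNA, which is transcribed as long strands and cut into separate RNAs, mostly at the tRNA genes between them. In macrophages respiration is known to fall and glycolysis to rise during inflammatory activation.

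RNA was measured by sequencing in bone marrow-derived macrophages, cells grown in culture from the marrow of C57BL/6J mice. Marrow cells received CRISPR-Cas9 lentivirus on day 1 at a multiplicity of infection (infectious virus units per cell) of 30 and were differentiated over 5 days, in both groups. The virus targeted Adcy7, the gene of an adenylyl cyclase that makes cyclic AMP, in 2 libraries (Adcy7 knockout), and Rosa, a widely used neutral locus, in the other 2 (Rosa control). The age of the mice, the guide sequences and any selection of infected cells are not stated in the sources used here, and the cultures are not described as clones. All libraries carry batch number 1. Whether replicates were separate mice or cultures is not given either, so p-values reflect the spread between these libraries, which may be technical.

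Library totals ranged from 61782358 to 71914179 deposited counts. Adcy7 itself was at 59.4 and 58.8 CPM (counts scaled to an equal library total) in the knockout and at 122 and 125 CPM in the control, which is 48.4% of the control level, so its mRNA remained. Markers counted here as higher or lower passed the threshold given in the next paragraph. Over all tested genes 23.4% were higher and 23.4% lower in the knockout. Of 12 macrophage markers, 10 were lower and 1 was higher. Their summed levels were 22980 and 22781 CPM in the knockout against 58260 and 60108 CPM in the control. Lyz2 carried most of that sum, and of the defining markers Csf1r was at 1307 and 1168 CPM against 1812 and 1806 CPM while C1qa was at 0.0556 and 0 CPM against 76.5 and 66.9 CPM. Markers of other marrow cells moved too. Higher in the knockout were 7 of 8 tested eosinophil, 7 of 8 mast cell and basophil, 12 of 12 platelet, 7 of 8 B cell, 2 of 4 T cell and 3 of 6 dendritic cell markers. Lower were 5 of 10 neutrophil markers, 1 B cell marker and 1 dendritic cell marker. Summed levels in knockout and control libraries were 231 to 291 against 32.2 to 36.1 CPM for eosinophils, 114 to 120 against 28.3 to 37.5 CPM for mast cells and basophils, and 376 to 421 against 193 to 209 CPM for platelets. They were 113 against 48.6 to 51.9 CPM for B cells, 31.4 to 32.1 against 17.9 to 18.2 CPM for T cells, 44.9 to 45.4 against 10 to 10.7 CPM for dendritic cells, and 5244 to 6709 against 5862 to 7153 CPM for neutrophils. Ccr7 carried most of the dendritic cell sum in the knockout. Without it the summed list was lower there, at 3.8 and 4.31 CPM against 8.48 and 7.36 CPM. Batf3, the lower dendritic cell marker, made up most of that control level, at 0.932 and 1.44 CPM against 6.63 and 6.11 CPM. The other markers called higher were Flt3, at 1.88 and 1.72 CPM against 0.836 and 0.572 CPM, and Zbtb46. Blnk made up most of the B cell sum in the knockout, at 73.8 and 71.7 CPM against 24.8 and 20.6 CPM. Cd28 made up most of the T cell sum, at 22.6 and 23.2 CPM against 16.3 and 16.8 CPM. Cd3e, at 0.236 and 0.453 CPM against 0.167 and 0 CPM, was not called, nor was Cd3d. The part of other cells in the results below was not tested. In bulk RNA, fewer cells of a type and less RNA per cell cannot be told apart.

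Nuclear and mitochondrial genes of the chain differed in the direction of their calls. A call here means an adjusted p under 0.05 in the quasi-likelihood test of edgeR, with Benjamini-Hochberg adjustment over all 15832 genes that passed the filter on low counts. Of all tested genes 46.7% were called, 23.4% higher and 23.4% lower in the knockout, and the median log2 fold change was 0.01. Of the 94 members, 89 passed the filter, 76 nuclear and all 13 mitochondrial. Of the 76 nuclear members 27 were lower (35.5%), 5 were higher (6.58%) and 44 were not called. Their median log2 fold change was -0.17, and 58 of the 76 values were negative. Of the 13 mitochondrial members 5 were higher and none was lower, with 0 lower at an unadjusted p under 0.05 in the edgeR test and 0 in DESeq2. The number of nuclear members called lower dropped to 17 without control replicate 1 and to 12 without control replicate 2. The number called higher was 3 without knockout replicate 1, 9 without knockout replicate 2, 1 without control replicate 1, 2 without control replicate 2 and 3 without the low-count filter. No nuclear member that passed the threshold changed its sign in any of the 14 alternatives run.

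Summed over all members, the nuclear genes took slightly less of the knockout libraries. Their sum was 7639 and 7309 CPM in the knockout and 8093 and 8317 CPM in the control, a ratio of group means of 0.911, and the groups did not overlap. The sum of the mitochondrial genes was 33454 and 39865 CPM in the knockout and 33180 and 37054 CPM in the control. These values interleave, so the total mitochondrial messenger share, 3.35% and 3.99% of counts against 3.32% and 3.71%, did not separate the groups. With 2 libraries a group no permutation test of such a sum can reach 0.05, and none was made.

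**Figure D1:**
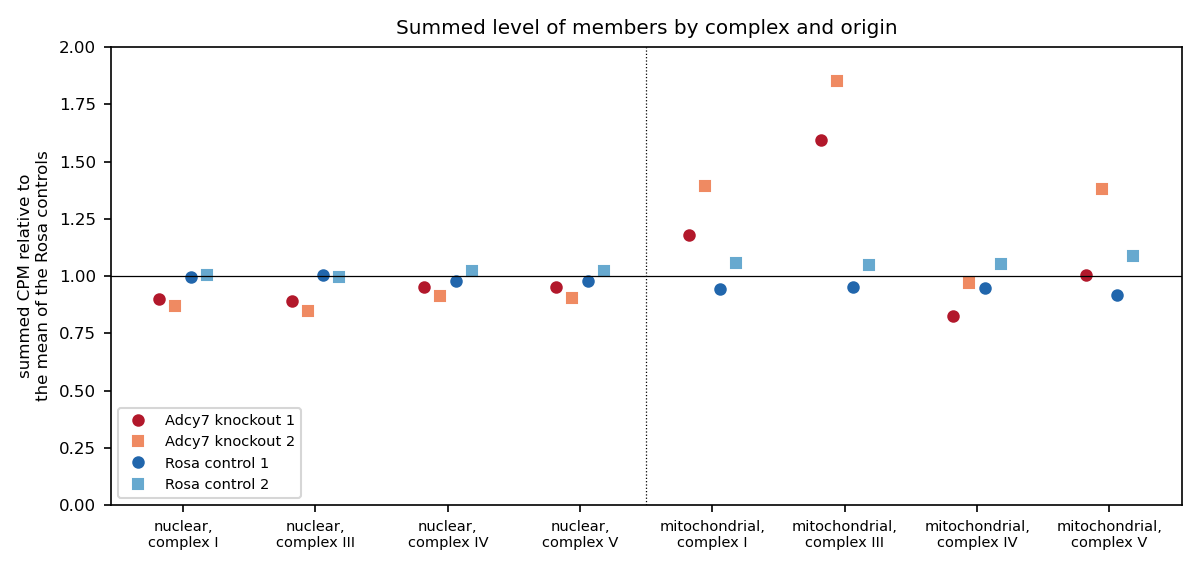
Summed CPM of the members of each complex, split by nuclear and mitochondrial origin, in each of the 4 libraries, divided by the mean of the 2 Rosa control libraries (line at 1). All 4 nuclear sums are below 1 in both knockout libraries, while the mitochondrial sums range from a ratio of group means of 0.897 for complex IV to 1.72 for complex III.

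Among the mitochondrial genes the calls fell together at one end of the gene order. In genome order the protein genes are mt-Nd1, mt-Nd2, mt-Co1, mt-Co2, mt-Atp8, mt-Atp6, mt-Co3, mt-Nd3, mt-Nd4l, mt-Nd4, mt-Nd5, mt-Nd6 and mt-Cytb, with mt-Nd6 on the other strand. None of the first 8 was called. All of the last 5 were higher in the knockout, at log2 fold changes of 1.03, 0.80, 0.51, 0.29 and 0.80 in that order. The 2 ribosomal RNA genes, which lie ahead of mt-Nd1 and are not protein genes, were also higher.

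mt-Cytb (ENSMUSG00000064370) encodes cytochrome b, the only subunit of complex III made inside mitochondria. Its level was 3234 and 3757 CPM in the knockout and 1934 and 2127 CPM in the control, so both knockout libraries lay well above both controls. The log2 fold change was 0.80 (SE 0.10, n = 2 per group), with an adjusted p of 0.000409 in edgeR's test.

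mt-Nd4l (ENSMUSG00000065947) and mt-Nd4 (ENSMUSG00000064363) encode membrane subunits of the proton-pumping arm of complex I. They share 1 messenger RNA, since their reading frames overlap by 7 bases. The sequence around the junction is shown because any read crossing it belongs to both genes. It runs from 30 bases before to 30 bases after the overlap, which is in capitals, and comes from GENCODE M21 transcripts on GRCm38.

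mt-Nd4l and mt-Nd4: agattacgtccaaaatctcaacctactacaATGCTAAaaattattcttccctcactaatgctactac

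mt-Nd4l was at 302 and 393 CPM in the knockout and 155 and 188 CPM in the control, with a log2 fold change of 1.03 (SE 0.14, adjusted p 0.000528 in edgeR's test). mt-Nd4 was at 2050 and 2466 CPM in the knockout and 1217 and 1392 CPM in the control, with a log2 fold change of 0.80 (SE 0.12, adjusted p 0.000679 in edgeR's test). For both genes every knockout library was above every control library.

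mt-Nd5 (ENSMUSG00000064367), another membrane subunit of complex I, was at 1891 and 2030 CPM in the knockout and 1388 and 1398 CPM in the control, with a log2 fold change of 0.51 (SE 0.08, adjusted p 0.00147 in edgeR's test). mt-Nd6 (ENSMUSG00000064368), encoded on the opposite strand, was at 477 and 481 CPM against 395 and 394 CPM, a log2 fold change of 0.29 (SE 0.08, adjusted p 0.0154 in edgeR's test). The groups did not overlap for either gene. The annotated ends of the pair overlap by 14 bases, and the labels name no strand-keeping step, so reads from the transcript opposite mt-Nd6 may be counted in it. mt-Nd6 was not called without control replicate 1 or without control replicate 2, where its adjusted p reached 0.189. The other 4 higher genes kept their call in all 14 alternatives.

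The genes not called included the most abundant mitochondrial messenger per base. mt-Co1 (ENSMUSG00000064351), the catalytic subunit of complex IV, was at 9782 and 11499 CPM per kilobase in the knockout and 11341 and 12565 CPM per kilobase in the control. Its log2 fold change was -0.16 (SE 0.11), and the groups overlapped. mt-Co2 (log2 fold change -0.14, SE 0.11) and mt-Co3 (-0.06, SE 0.11), the other core subunits of complex IV, also overlapped between groups. For complex I, mt-Nd1 had a log2 fold change of 0.21 (SE 0.12), mt-Nd2 of -0.08 (SE 0.14) and mt-Nd3 of 0.09 (SE 0.15). The membrane subunits of ATP synthase, mt-Atp6 and mt-Atp8, had log2 fold changes of 0.22 (SE 0.14) and 0.42 (SE 0.18), with 1 of the 2 at an unadjusted p under 0.05 and 0 called by edgeR or DESeq2. All 8 genes were lower in knockout replicate 1 than in knockout replicate 2. So were the 5 mitochondrial genes called higher and the ribosomal RNA genes, though mt-Nd6 hardly differed, at 477 and 481 CPM. Without knockout replicate 1, 8 mitochondrial genes were called higher, the added ones being mt-Nd1, mt-Atp6 and mt-Atp8. Without knockout replicate 2, mt-Co1 and mt-Co2 were called lower. mt-Atp8 was called higher in 5 of the 14 alternatives, also with the filter of at least 1 CPM (adjusted p 0.0477), with counts divided by 4 (0.0383), without control replicate 2 (0.023) and with a replicate block (0.0128).

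Ratios of counts within a library were taken for each pair of 1 of the last 5 and 1 of the first 8 protein genes. Of the 40 pairs, 35 had both knockout libraries above both controls, and 5 overlapped, 4 of them with mt-Nd6 and 1 with mt-Nd5. How many pairs of all tested genes would separate in this way was not counted. Each pair sets a gene called higher over a gene not called. The pairs share genes and were formed after the values were seen, so this is a description. The ratio of mt-Cytb to mt-Co1 counts was 0.214 and 0.211 in the knockout and 0.11 and 0.11 in the control. The ratio of mt-Nd4 to mt-Nd2, both complex I subunits, was 1.75 and 1.6 against 0.921 and 0.888. These 2 pairs are among those furthest apart. For mt-Nd6 to mt-Nd1 the ratio was 0.197 and 0.167 against 0.184 and 0.159, and for mt-Nd5 to mt-Atp8 it was 3.53 and 2.5 against 3.06 and 2.51. Such ratios do not depend on the library total. They show unequal change of the genes and not which of them changed.

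The ribosomal RNAs of the mitochondrion stood beside these changes. mt-Rnr1, of the small subunit, was at 473 and 686 CPM in the knockout and 235 and 281 CPM in the control, with a log2 fold change of 1.18 (SE 0.17, adjusted p 0.000611 in edgeR's test). mt-Rnr2, of the large subunit, was at 913 and 1343 CPM against 342 and 438 CPM, a log2 fold change of 1.54 (SE 0.18, adjusted p 0.000248). The ratio of mt-Rnr2 to mt-Co1 counts was 0.0604 and 0.0756 against 0.0195 and 0.0226, so the higher genes lie at both ends of the order. The libraries were made from poly(A) RNA, which holds these RNAs only in part. Their level was higher in the knockout, as was that of the later mitochondrial messengers. Between the knockout libraries it differed more in proportion than that of those messengers, such as mt-Cytb at 3234 and 3757 CPM. The part of the ribosomal RNAs in the differences of those messengers was not tested.

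**Figure D2:**
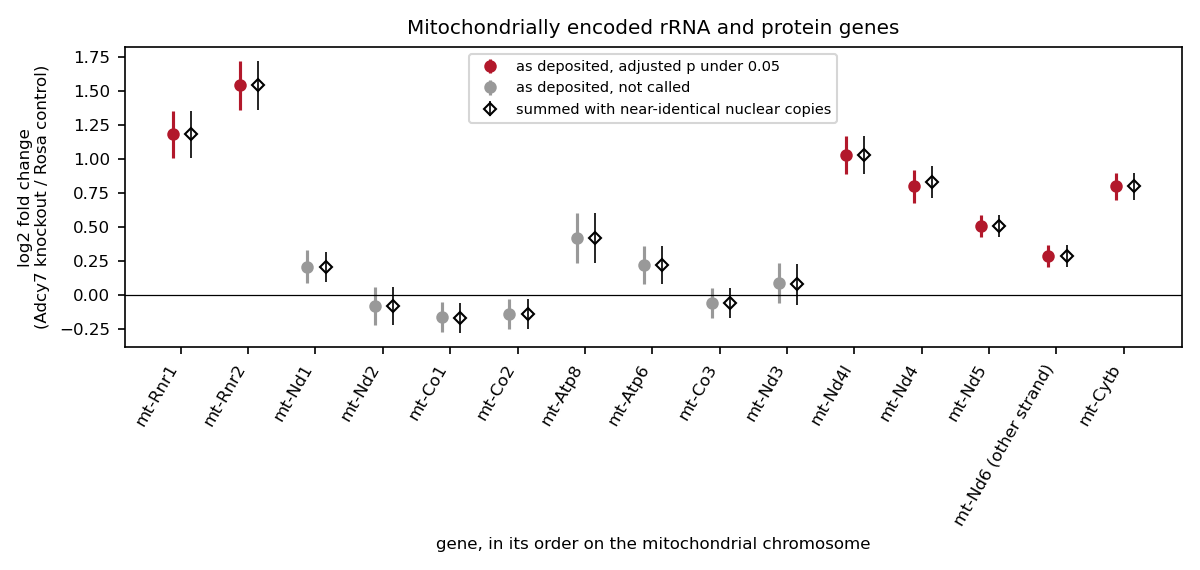
Log2 fold change (Adcy7 knockout over Rosa control) with its standard error for the 2 ribosomal RNA and 13 protein genes of the mitochondrial chromosome in genome order, n = 2 libraries per group; red marks adjusted p under 0.05, grey not called, and open diamonds the values after adding near-identical nuclear copies. The last 5 protein genes lie above 0, at 0.29 to 1.03, and the values with copies differ little from those without.

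Copies of mitochondrial DNA in the nuclear genome share reads with several of these genes. On chromosome 1, annotated pseudogenes match mt-Atp6, mt-Co2, mt-Co3 and mt-Nd4l at 100% identity over nearly their whole length, and mt-Nd4 at 100% over 876 bases. In the deposited counts each fully matching copy held about as many counts as its mitochondrial gene. Gm10222 had 69563 counts over the 4 libraries where mt-Nd4l had 69361, and Gm28661 had 638179 where mt-Co2 had 647888. At identical sequence, reads cannot be assigned to one or the other, and the level of mt-Nd4l is thus uncertain by about the size of its copy.

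The chromosome 1 copies of mt-Co1 and mt-Nd3 differ from them by a single base over the matched stretch. The sequences below hold those bases in capitals. Copies elsewhere that differ at more bases held at most 2218 counts. The first pair starts at base 1063 of the mt-Co1 transcript and holds the substitution A1066T, and the second starts at base 1 of mt-Nd3 and holds T3C. Positions count from 1 at the 5′ end of the mitochondrial transcript, with its base first and the copy's base last.

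mt-Co1: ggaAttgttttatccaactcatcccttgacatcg

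Gm29216: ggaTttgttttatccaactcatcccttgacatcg

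mt-Nd3: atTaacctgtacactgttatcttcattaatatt

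Gm28438: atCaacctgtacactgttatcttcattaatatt

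Gm28438 matches mt-Nd3 over 345 bases, and the 2 held 28845 and 29518 counts. Gm29216 matches only 483 bases of mt-Co1 and was itself called lower, at a log2 fold change of -0.37 (SE 0.09, adjusted p 0.0116 in edgeR's test), while mt-Co1 was not called. With every mitochondrial gene summed with its copies, the same 5 genes were called, and mt-Nd4 moved from 0.80 to 0.83 and mt-Co1 from -0.16 to -0.17 on the log2 scale. This alternative was chosen after seeing the data.

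Complex I takes electrons from NADH. Of its 36 nuclear genes 11 were lower (30.6%), 2 were higher (5.56%) and 23 were not called, at a median log2 fold change of -0.13. Over all tested genes 23.4% were lower and 23.4% higher. Their summed level was 1919 and 1854 CPM in the knockout and 2128 and 2144 CPM in the control, a ratio of 0.883. The number lower was 7 without control replicate 1 and 5 without control replicate 2.

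The largest fall within complex I was that of Ndufb3 (ENSMUSG00000026032), a small accessory subunit of the membrane arm. Ndufb3 was at 20.2 and 22.5 CPM in the knockout and 43.5 and 44.3 CPM in the control, so both knockout libraries stood at about the same distance below both controls. Its log2 fold change was -1.02 (SE 0.10), with an adjusted p of 0.000104 in edgeR's test. Ndufb11 (ENSMUSG00000031059), an X-linked accessory subunit of the same arm, was at 57.3 and 52.2 CPM against 93.2 and 96.7 CPM, a log2 fold change of -0.78 (SE 0.10, adjusted p 0.000485). Its exons overlap those of Rbm10 on the other strand by 117 bases, and Rbm10 held 7114 counts against 20235 for Ndufb11, so some of its reads may belong there.

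Ndufa10 (ENSMUSG00000026260), an accessory subunit of the membrane arm that resembles nucleoside kinases, was at 67.5 and 67 CPM in the knockout and 100 and 101 CPM in the control. The log2 fold change was -0.57 (SE 0.09, adjusted p 0.00128 in edgeR's test), with no overlap between groups. Ndufa6 (ENSMUSG00000022450), an accessory subunit at the foot of the matrix arm, was at 43.9 and 48.5 CPM against 63.9 and 68.2 CPM, a log2 fold change of -0.50 (SE 0.11, adjusted p 0.00552), and lost its call without control replicate 2 (adjusted p 0.0551). The members called higher were Ndufa13 and Ndufb6. Ndufa13, also known as GRIM-19, was at 76.6 and 76.1 CPM against 63.9 and 62.9 CPM, and Ndufb6 at 34 and 31.9 CPM against 26.7 and 27.1 CPM. Their log2 fold changes were 0.28 (SE 0.10, adjusted p 0.0394) and 0.31 (SE 0.10, adjusted p 0.0376), and both calls were lost without knockout replicate 1, without either control replicate and without the low-count filter.

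The catalytic core of complex I, which carries the flavin and the iron-sulfur clusters, has 7 nuclear genes. Of these Ndufs8 (log2 fold change -0.51, SE 0.11) and Ndufv2 (-0.50, SE 0.11), each holding iron-sulfur clusters, were lower with an adjusted p of 0.00635 in edgeR's test for both. The other 5 core genes were not called, and no core gene was higher (0 at an unadjusted p under 0.05 and 0 in DESeq2). Outside the core 9 of 29 accessory genes were lower (31%) and 2 were higher (6.9%). In the core 28.6% were lower, where 23.4% of all tested genes were lower and 23.4% higher. Core and accessory genes had medians of -0.15 and -0.13 and ratios of summed level of 0.89 and 0.881.

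Complex III passes electrons from ubiquinol to cytochrome c. Of the 8 nuclear genes of complex III taken by the rule, 4 were lower (50%), 1 was higher (12.5%) and 3 were not called. Over all tested genes 23.4% were lower and 23.4% higher. Cyc1, the nuclear gene of the cytochrome c1 subunit, falls outside the rule. It was called higher and is given further below. Uqcrfs1 (ENSMUSG00000038462), the Rieske iron-sulfur protein of the catalytic core, was at 85.6 and 85.3 CPM in the knockout and 126 and 119 CPM in the control, with a log2 fold change of -0.50 (SE 0.09, adjusted p 0.00192 in edgeR's test). The groups were clearly apart. Uqcrh, the hinge protein near cytochrome c1, was at 86.9 and 81.1 CPM against 112 and 125 CPM (log2 fold change -0.48, SE 0.10, adjusted p 0.0061). Uqcrb, which binds near the ubiquinone site, was at 30.1 and 34.6 CPM against 53.1 and 43.7 CPM (-0.57, SE 0.13, adjusted p 0.00682).

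Uqcrc2, a core scaffold protein of complex III, had a log2 fold change of -0.33 (SE 0.09, adjusted p 0.0147 in edgeR's test). Uqcrq, a small subunit, went the other way, at 162 and 147 CPM in the knockout against 121 and 124 CPM in the control, with a log2 fold change of 0.36 (SE 0.09, adjusted p 0.0149). Without control replicate 1 the calls of Uqcrb, Uqcrc2 and Uqcrq were lost, and without control replicate 2 those of Uqcrh, Uqcrc2 and Uqcrq. Uqcrb also has near-identical annotated copies that held 18.1% as many counts. The mitochondrial partner mt-Cytb rose while 4 of these nuclear subunits fell. Ratios of summed level were 1.72 for mt-Cytb and 0.868 for the nuclear genes taken by the rule, which leaves out Cyc1.

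Complex IV hands electrons to oxygen. Of its 20 nuclear genes 15 were tested, of which 4 were lower (26.7%), 1 was higher (6.67%) and 10 were not called. Over all tested genes 23.4% were lower and 23.4% higher, so the number of lower calls was near that share. Ndufa4 (ENSMUSG00000029632) was at 32.4 and 31.5 CPM in the knockout and 45.6 and 48.9 CPM in the control, with a log2 fold change of -0.55 (SE 0.11, adjusted p 0.00372 in edgeR's test). Cox7b, a small membrane subunit, was at 26.2 and 35.3 CPM against 42.6 and 46 CPM (-0.52, SE 0.14, adjusted p 0.0193), with a wide gap between the knockout libraries. Cox7c and Cox6b1 were near the threshold, at -0.30 (SE 0.11) and -0.25 (SE 0.09) with an adjusted p of 0.0492 each in edgeR's test. Of these 4 genes, 2 were called without control replicate 1, 1 without control replicate 2 and 2 without the low-count filter.

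Cox5b (ENSMUSG00000061518), a zinc-binding subunit on the matrix side, was the only nuclear complex IV gene called higher. It was at 112 and 107 CPM in the knockout and 80.7 and 87.1 CPM in the control, with a log2 fold change of 0.40 (SE 0.10, adjusted p 0.0103 in edgeR's test). It lost its call without control replicate 1 (adjusted p 0.154), and an annotated near-identical copy held 7.54% as many counts. Its partner subunit Cox5a was at -0.23 (SE 0.10) and was not called.

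Several complex IV subunits exist as isoforms, a general one and one of heart, muscle, lung or testis. The general isoforms Cox4i1, Cox6a1, Cox7a2 and Cox8a and the related supercomplex factor Cox7a2l were not called, with log2 fold changes from -0.18 to 0.16, while the general isoforms Cox6b1 and Cox7b were called lower, as given above. Cox4i1 was at 509 and 459 CPM in the knockout and 483 and 514 CPM in the control. Of the tissue isoforms, Cox6a2 was at 6.83 to 10.4 CPM over the 4 libraries (log2 fold change 0.13, SE 0.20), and Cox7a1 and Cox6b2 stayed under 1 CPM, with values of -0.17 (SE 0.61) and -0.81 (SE 0.72). Cox4i2 had 8 and 0 counts in the knockout and 17 and 9 in the control, and Ndufa4l2 had 11 counts in knockout replicate 1 and none elsewhere. Cox7b2, Cox8b and Cox8c had no count in any library. These last 5 genes did not pass the filter. Of 6 striated muscle markers Myh6, Myh7, Actc1 and Mb were at 0 in all libraries. Tnnt2 had 90 and 36 counts in the knockout and 20 and 26 in the control (log2 fold change 1.46, SE 0.57, adjusted p 0.0676 in edgeR's test), and Ckm had 8 to 20 counts. The summed list was at 1.36 and 0.777 CPM against 0.471 and 0.658 CPM.

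ATP synthase joins a catalytic F1 head in the matrix to a rotating ring of c subunits in the membrane. Of its 17 nuclear genes 8 were lower (47.1%), 1 was higher (5.88%) and 8 were not called, at a median log2 fold change of -0.22. Over all tested genes 23.4% were lower and 23.4% higher. The number lower was 6 without control replicate 1 and 4 without control replicate 2.

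The F1 head was split. Atp5b (ENSMUSG00000025393), the catalytic beta subunit, was at 806 and 777 CPM in the knockout and 572 and 592 CPM in the control. The log2 fold change was 0.46 (SE 0.08), with an adjusted p of 0.00264 in edgeR's test, and this was the only nuclear member called higher in all 14 alternatives. Atp5c1 (ENSMUSG00000025781), the gamma subunit that turns inside the head, was at 166 and 171 CPM against 240 and 241 CPM, a log2 fold change of -0.50 (SE 0.08, adjusted p 0.00127). The delta and epsilon subunits of the stalk, Atp5d and Atp5e, were lower at -0.29 (SE 0.09, adjusted p 0.031) and -0.45 (SE 0.11, adjusted p 0.0123). The alpha subunit Atp5a1, which alternates with beta in the head, was at -0.16 (SE 0.09) and was not called.

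In the complex, alpha and beta occur in equal number, with a single gamma. The ratio of Atp5b to Atp5a1 counts was 1.43 and 1.51 in the knockout and 0.962 and 0.945 in the control. The ratio of Atp5b to Atp5c1 counts was 4.86 and 4.54 against 2.39 and 2.46. Both ratios were higher in both knockout libraries than in either control. The summed level of the 5 F1 genes hardly differed (ratio 0.987), with Atp5b counted in it, whereas that of the other 12 ATP synthase genes had a ratio of 0.834. Of those 12, 5 were lower (41.7%) and none was higher (0 at an unadjusted p under 0.05 and 0 in DESeq2). Over all tested genes 23.4% were lower and 23.4% higher.

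The c subunit of the ring is encoded by 3 genes that yield the same mature protein. Atp5g2 (ENSMUSG00000062683) was at 121 and 112 CPM in the knockout and 160 and 175 CPM in the control, with a log2 fold change of -0.51 (SE 0.10, adjusted p 0.00325 in edgeR's test). Atp5g1 was at 36.6 and 25.6 CPM against 47.5 and 47.5 CPM (-0.59, SE 0.17, adjusted p 0.0212), but near-identical annotated copies held 53.8% as many counts, so its level is uncertain. Atp5g3 was at 113 and 101 CPM against 118 and 125 CPM (-0.17, SE 0.10) and was not called. Of all c subunit counts, Atp5g3 took 41.9% and 42.4% in the knockout against 36.3% and 36% in the control, and Atp5g2 took 44.6% and 46.9% against 49.1% and 50.3%. Both shares separated the groups, with no test made.

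Atp5s, which codes for coupling factor B, had the lowest fold change of all members. It was at 1.81 and 1.6 CPM in the knockout and 4.04 and 3.99 CPM in the control, with a log2 fold change of -1.22 (SE 0.25, adjusted p 0.00409 in edgeR's test). Atp5h and Atp5mpl, of the peripheral stalk and membrane part, were also lower, at -0.32 (SE 0.08) and -0.46 (SE 0.14). Outside the rule, Atpif1, the inhibitor that stops ATP synthase from running backwards, was at 59.8 and 63.5 CPM against 100 and 102 CPM, a log2 fold change of -0.70 (SE 0.09, adjusted p 0.000449). Usmg5 was not called, at 0.31 (SE 0.13).

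**Figure D3:**
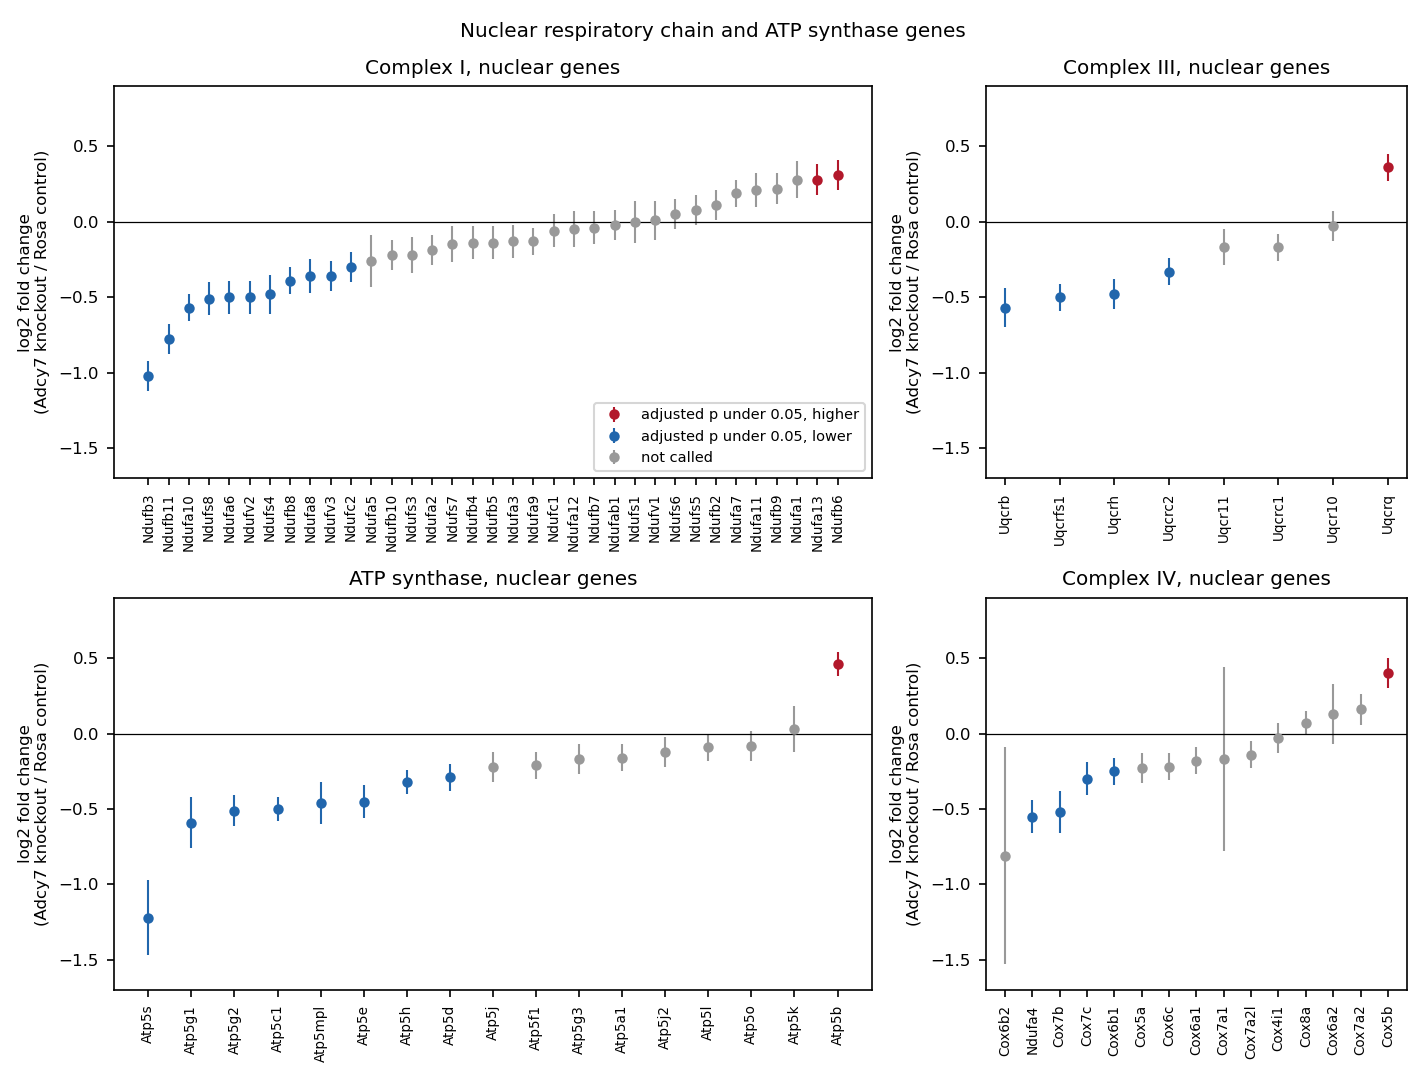
Log2 fold change (Adcy7 knockout over Rosa control) with its standard error for the tested nuclear members reported here, by complex and sorted, n = 2 libraries per group; blue and red mark adjusted p under 0.05, lower and higher, and grey not called. In each complex most points lie below 0, with 1 or 2 members called higher: Ndufa13 and Ndufb6, Uqcrq, Cox5b and Atp5b.

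Of the 32 nuclear members called, 12 kept their call under every alternative. The 11 lower ones were Ndufb3, Ndufb11, Ndufa10, Ndufs8 and Ndufv2 of complex I, Uqcrfs1 of complex III, Ndufa4 of complex IV, and Atp5c1, Atp5g1, Atp5g2 and Atp5s of ATP synthase, and the higher one was Atp5b. They include genes of complexes I, III and IV and of ATP synthase. Among all nuclear members, 27 have an annotated gene on the other strand over their exons, and for 8 near-identical copies held over 5% as many counts, so the levels of such genes are less certain. The other 20 called members lost their call in at least 1 alternative, mostly without a control library.

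**Figure D4:**
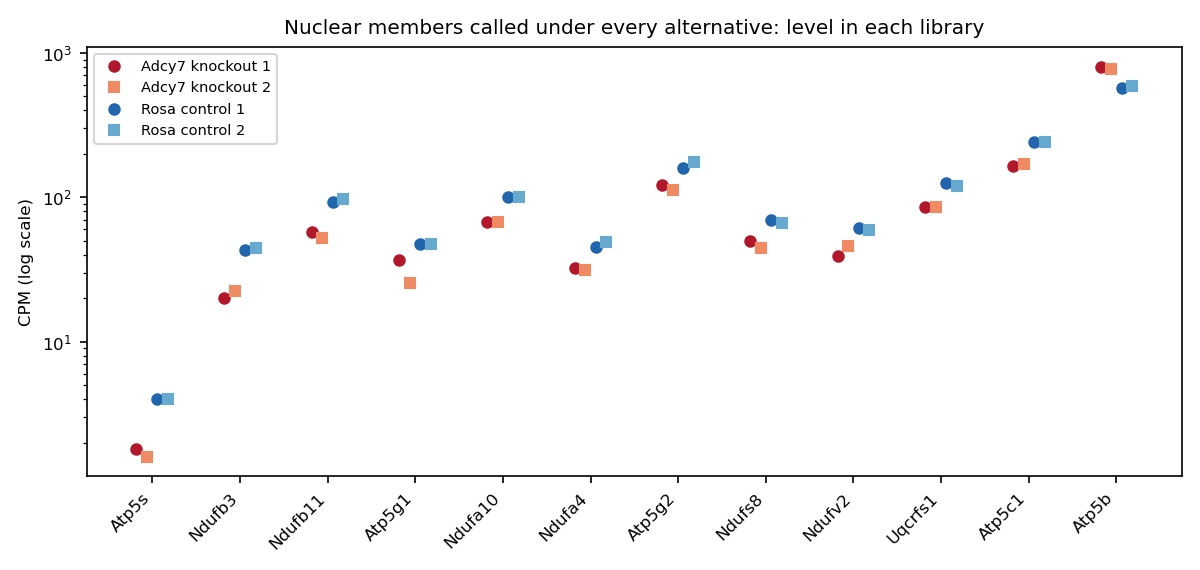
CPM (log scale) in each of the 4 libraries for the 12 nuclear members called under every alternative, sorted by log2 fold change. For the 11 lower genes both Adcy7 knockout libraries lie below both Rosa control libraries, and for Atp5b both lie above, at 806 and 777 against 572 and 592 CPM.

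The promoter windows of the members were read for motifs of factors known to act on respiratory genes or on cyclic AMP signals. RefSeq windows on GRCm38.p6, running from 250 bases before to 50 bases after the gene start, were found for 66 of the 81 nuclear members. The searched letters, on both strands, were CGCATGCG, the core of its site, for NRF1, CCGGAAG for ETS factors such as GABP, AAGATGGC for YY1 and TGACGTCA for the cyclic AMP response element (CRE). No motif contains another. A gene was counted if any of its windows held a match. NRF1 letters occurred in 13.6% of the 66 members and in 2.07% of all 27025 genes with a window. ETS letters occurred in 21.2% and 9.93%, YY1 letters in 15.2% and 3.19%, and CRE letters in 6.06% and 2.03%. Of 24 members called lower, 8.33%, 20.8%, 8.33% and 8.33% held them in that order. Of 36 members not called, 19.4%, 22.2%, 22.2% and 5.56% did. Of the 4 members called higher that had a window, only Ndufb6 held any of them, an ETS match. These shares rest on few genes, and a match is a description of letters and not a site.

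The windows below belong to members that kept their call. They show a CRE match in Ndufa10 and Uqcrfs1, an NRF1 match in Atp5g2, and none of these letters in Atp5b, the higher gene. Ndufs8, another lower member that kept its call, held an ETS match. The other lower members that kept it, Ndufb3, Ndufb11, Ndufv2, Ndufa4, Atp5c1, Atp5g1 and Atp5s, held none of these letters. A window without a match is thus not particular to the higher gene. Each window shown is written 5′ to 3′ on the gene's strand with the match in capitals. Their positions on GRCm38.p6 are chr1:92473709-92474008 (minus strand), chr13:30545267-30545566 (minus strand), chr15:102670998-102671297 (minus strand) and chr10:128083057-128083356 (plus strand).

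Ndufa10: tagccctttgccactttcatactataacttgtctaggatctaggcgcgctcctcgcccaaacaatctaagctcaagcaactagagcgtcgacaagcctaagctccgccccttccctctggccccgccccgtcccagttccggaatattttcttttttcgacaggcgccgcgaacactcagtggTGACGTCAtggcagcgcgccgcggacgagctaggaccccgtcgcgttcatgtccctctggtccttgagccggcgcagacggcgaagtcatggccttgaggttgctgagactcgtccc

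Uqcrfs1: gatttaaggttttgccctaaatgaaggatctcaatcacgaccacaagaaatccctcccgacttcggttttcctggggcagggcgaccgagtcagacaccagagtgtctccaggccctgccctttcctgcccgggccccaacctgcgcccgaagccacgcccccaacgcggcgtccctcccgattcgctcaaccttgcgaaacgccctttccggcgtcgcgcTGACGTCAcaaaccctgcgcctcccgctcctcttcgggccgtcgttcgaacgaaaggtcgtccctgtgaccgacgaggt

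Atp5g2: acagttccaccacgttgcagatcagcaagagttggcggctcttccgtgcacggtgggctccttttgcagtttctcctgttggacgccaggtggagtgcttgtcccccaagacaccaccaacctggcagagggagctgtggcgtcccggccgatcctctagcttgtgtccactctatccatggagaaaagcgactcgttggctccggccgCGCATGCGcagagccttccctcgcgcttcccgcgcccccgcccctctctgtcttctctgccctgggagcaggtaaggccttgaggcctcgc

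Atp5b: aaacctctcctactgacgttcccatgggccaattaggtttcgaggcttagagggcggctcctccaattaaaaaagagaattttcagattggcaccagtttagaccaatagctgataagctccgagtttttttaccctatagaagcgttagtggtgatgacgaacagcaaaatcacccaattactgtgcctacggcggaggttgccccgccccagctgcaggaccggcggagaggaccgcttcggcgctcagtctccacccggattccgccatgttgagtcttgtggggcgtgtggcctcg

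Also outside the rule are complex II, which feeds electrons from succinate, the carrier cytochrome c, and cytochrome c1, a subunit of complex III. Of these 6 genes 2 were lower and 1 was higher, where 23.4% of all tested genes were lower and 23.4% higher. Sdhb, the iron-sulfur subunit of complex II, was at 135 and 126 CPM in the knockout against 176 and 170 CPM in the control (log2 fold change -0.39, SE 0.09, adjusted p 0.00752 in edgeR's test), and Sdhc, a membrane anchor, at 112 and 112 CPM against 149 and 147 CPM (-0.39, SE 0.08, adjusted p 0.00504). Cyc1, the cytochrome c1 gene, was at 152 and 134 CPM against 116 and 116 CPM (0.32, SE 0.10, adjusted p 0.0293). Sdha, Sdhd and Cycs were not called, at -0.17 (SE 0.08), -0.11 (SE 0.11) and -0.20 (SE 0.12). Each of the 3 calls was lost without control replicate 1 and without control replicate 2, and that of Cyc1 also without knockout replicate 1 and without the low-count filter.

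Factors that assemble the complexes were called in both directions, as were all tested genes, of which 23.4% were higher and 23.4% lower. None of the assembly lists passed these shares in either direction. For complex I, 3 of 15 were higher and 3 lower, among them Ndufaf7 (log2 fold change 0.47, SE 0.12), Tmem126a (0.47, SE 0.13) and Acad9 (-0.58, SE 0.16). For complex III, 1 of 6 was higher (Uqcc1, 0.40, SE 0.12) and 1 lower. The lower one, Bcs1l, which inserts the Rieske protein encoded by Uqcrfs1, was at 7.26 and 7.88 CPM in the knockout and 16.1 and 15.9 CPM in the control, with a log2 fold change of -1.07 (SE 0.13, adjusted p 0.000295 in edgeR's test). Without control replicate 1 the calls of Ndufaf7, Tmem126a and Uqcc1 were lost, and without control replicate 2 that of Acad9.

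For complex IV, 3 of 21 tested assembly genes were higher and 4 lower. Sco2, a copper chaperone for complex IV, was at 10.7 and 9.7 CPM in the knockout and 1.84 and 2.96 CPM in the control, with a log2 fold change of 2.10 (SE 0.26, adjusted p 0.000287 in edgeR's test). Cmc2 was at 6.92 and 6.31 CPM against 13.2 and 13 CPM (-0.97, SE 0.15, adjusted p 0.000975), and Cox15, which makes heme a, at 24.1 and 22.4 CPM against 37.6 and 36.5 CPM (-0.66, SE 0.10, adjusted p 0.00109). None of the 3 ATP synthase assembly genes was called (0 at an unadjusted p under 0.05 and 0 in DESeq2), with Atpaf1, Atpaf2 and Tmem70 at 0.03, 0.03 and -0.24.

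Of 24 genes whose products read or copy mitochondrial DNA or handle its RNA, 6 were higher and 1 was lower. Over all tested genes 23.4% were higher and 23.4% lower, so the number of higher calls was near that share. The median log2 fold change of the list was 0.31, against 0.01 over all tested genes. The lower gene was Tfb1m (log2 fold change -0.70, SE 0.18, adjusted p 0.0123 in edgeR's test). Fastk, whose product stabilises the mt-Nd6 messenger, was at 91.6 and 86.7 CPM in the knockout and 55.2 and 48.1 CPM in the control (log2 fold change 0.80, SE 0.11, adjusted p 0.000465 in edgeR's test). Lrpprc, which protects mitochondrial messengers, was at 34 and 29.4 CPM against 18 and 19.6 CPM (0.77, SE 0.12, adjusted p 0.00118). Fastkd2, an RNA-binding protein that acts on mitochondrial ribosomal RNA, was at 10.8 and 16.2 CPM against 6.46 and 6.25 CPM (1.10, SE 0.20, adjusted p 0.00237). For Fastk, Lrpprc and Fastkd2 both knockout libraries were above both controls.

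Of 10 nuclear regulators of respiratory genes 3 were higher and 2 lower, where 23.4% of all tested genes were higher and 23.4% lower. Myc was at 13.3 and 15.6 CPM in the knockout and 35.6 and 31.1 CPM in the control (log2 fold change -1.19, SE 0.12, adjusted p 8.15e-05 in edgeR's test). Gabpb2, a subunit of GABP, was at 24.8 and 30.9 CPM against 18.8 and 20.7 CPM (0.51, SE 0.13, adjusted p 0.0112), and lost its call without control replicate 1. Ppargc1a, a coactivator that drives mitochondrial gene expression in other tissues, had 31 and 35 counts in the knockout and none in the control. Its pooled level of 0.494 CPM was at least 5.58-fold higher than a floor of 0.0885 CPM, taken as 3 fragments (12 counts) over the pooled control libraries, and this level is low.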

How the data were processed

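Poly(A) RNA of 4 libraries of bone marrow-derived macrophages was sequenced, per the labels' protocols, after selection on oligo(dT) beads and fragmentation. The authors deposited estimated counts (expected counts) per Ensembl gene as whole numbers, with no scaling to library size, and they were tested as deposited. The submitters' processing notes name fastp, HISAT2, StringTie and edgeR with GRCm39, and their versions and settings are not stated in the sources used here. Counts of 1 to 40 were multiples of 4 in 30.54% to 32.17% of cases. Whether 1 fragment is worth about 4 counts could not be settled from this. Floors assume 4 counts per fragment, and they cover counting error only.

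Symbols came from GENCODE M21 (GRCm38), which named 55141 of 55401 IDs. Genes were filtered with filterByExpr, TMM-scaled and then tested in R 4.3.3 by quasi-likelihood with edgeR 4.0.16 (common dispersion 0.0238, 2 residual degrees of freedom, Benjamini-Hochberg adjustment, threshold 0.05). The standard error (SE) was the log2 fold change divided by the square root of the F statistic. Near-identical copies had at least 95% identity over at least 150 bases and 50% of the shorter transcript in blastn 2.17.0. Both knockout columns carry KO3 in their names, and what the 3 means is not given. The test was checked on simulated counts.

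Members and lists were chosen with earlier results of these data known. The named genes were all mitochondrial protein genes, up to 4 nuclear members per complex and direction by adjusted p, all isoform sets, Atpif1, complex II with cytochromes c and c1, and up to 3 genes from each pathway list. One tested nuclear member is counted in the totals but not reported here. Other members are named where a group's members are listed, and those were picked after their values were seen. Alternatives were other scalings, other filters, DESeq2 1.42.0, counts divided by 4, a replicate block and leaving out each library, and, chosen after seeing the data, a robust fit and sums with nuclear copies.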

Additional observations from a re-analysis of the deposited data

How the results depend on the processing

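The number of nuclear members called higher was 5 under the other scalings, DESeq2, the robust fit, counts divided by 4, the sums with copies and the filter of at least 1 CPM, and 3 without a filter. Leaving out each library in turn gave 1 to 9 nuclear members higher (3 and 9 without knockout replicates 1 and 2, 1 and 2 without control replicates 1 and 2), 12 to 31 lower (17 and 12 without control replicates 1 and 2), 4 to 8 mitochondrial members higher and 0 to 2 lower. With 1 library in a group, that library is assumed to vary like the other group. No called gene that is named changed sign. Uncalled ones near 0 did: Atpaf1, Atpaf2, Cox4i1, Cox6a2, Cox7a1, mt-Co3, mt-Nd2 and mt-Nd3. With the replicate block, 4 nuclear members were higher and 25 lower, 6 mitochondrial members were higher (mt-Atp8 was added, as with the filter of at least 1 CPM and with counts divided by 4), and 3485 and 3560 of all genes were higher and lower against 3703 and 3697. Replicate numbers are only numbers here, since deviations of same-numbered libraries correlated at 0.0201. The ratio of summed levels was 0.911, 0.921 with TMM-scaled totals and 0.913 without mitochondrial counts for nuclear members, and 1.04, 1.05 and 1.05 for mitochondrial ones. The causes of these shifts were not tested, beyond fewer libraries or more genes tested. With 2 libraries a group, small differences of a member could not be called, and a missed threshold does not show that its level was the same.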

Other observations

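The 22 tRNA genes of the mitochondrial chromosome lie between the protein genes and mark where the long transcripts are cut. Of the 21 tested, 6 were higher in the knockout and 1 was lower. Over all tested genes 23.4% were higher and 23.4% lower, so the number of higher calls was near that share. The median log2 fold change of the tRNA genes was 0.70. Their summed levels were 99.5 and 108 CPM against 83.2 and 92 CPM in the control. Of the 6 higher ones, 5 (mt-Tl1, mt-Ti, mt-Tq, mt-Tm and mt-Ty) lie ahead of mt-Co1, where no protein gene was called, at log2 fold changes of 0.70 (SE 0.17), 1.89 (SE 0.59), 3.26 (SE 1.05), 2.06 (SE 0.43) and 1.28 (SE 0.26). mt-Tq had 0 and 13 counts in the control. The sixth, mt-Te, next to mt-Cytb, was at 14.9 and 15 CPM in the knockout and 7.47 and 8.09 CPM in the control (log2 fold change 0.96, SE 0.14, adjusted p 0.000655 in edgeR's quasi-likelihood test). mt-Ts1 was the lower one, at 34.7 and 35.4 CPM against 43.6 and 46.9 CPM (-0.36, SE 0.11, adjusted p 0.0263). These 7 genes were chosen after their values were seen. Mature tRNAs are short and have no poly(A) tail, and without strand, reads of a tRNA gene and of the transcript opposite cannot be told apart.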
